A study of Homo sapiens with 8 samples.

Results

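The analysis concerned 42 genes of mitosis in PC3, an established human prostate cancer cell line, with and without silencing of IER5L, an immediate early response gene. The members were taken by name: kinases that drive mitosis, adaptors of the spindle checkpoint, the machinery that separates sister chromatids, kinetochore and centromere proteins, kinesin motors, spindle and cytokinesis proteins, and regulators of mitotic entry. All 42 were found among the 58051 genes of the count table, and all 42 were among the 16959 genes that carried enough reads to be tested. PC3 cells were transduced with lentivirus carrying a control hairpin without a human target (shScramble, 4 libraries) or the sh2 hairpin against IER5L (shIER5L, 4 libraries), selected with puromycin, and sequenced as bulk RNA from 4 plates per condition. A single IER5L hairpin was sequenced, so an effect of IER5L silencing and an effect of that hairpin on other transcripts cannot be told apart. No time after transduction was given in the sources used here.

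Entry into mitosis is driven by cyclin-dependent kinase, which CDC25 phosphatases activate, and by the Aurora and Polo-like kinases. The chromosomes then attach to spindle microtubules through kinetochores, and the spindle checkpoint holds back CDC20, the activator of the anaphase-promoting complex, until every kinetochore is attached. Separase then cuts cohesin, kinesins shape and slide the spindle, and the cell divides. Transcripts of this machinery are kept low outside G2 and M phase by the DREAM repressor complex and raised by the MYBL2 and FOXM1 activators, so their summed level in a dividing culture follows how many cells are in G2 and M. In bulk RNA, a change in the number of such cells and a change in RNA per cell cannot be told apart.

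Total counts per library ran from 21512128 to 24662190 reads on genes, and the members took between 0.666% and 0.702% of them. The IER5L counts were 83, 154, 140 and 72 in the shScramble libraries and 62, 72, 49 and 29 in the shIER5L libraries, a log2 fold change of -1.08 (adjusted p = 0.0212). The raw IER5L counts of the conditions touched at 72. The defining epithelial markers KRT8, KRT18, KRT19 and EPCAM were present in every library, while CDH1 stayed between 0.94 and 1.33 CPM (counts scaled to a common library size by the TMM method). The prostate luminal markers KLK3 and KLK2 had 0 counts throughout. The summed level of 5 fibroblast markers ran from 4.73 to 5.38 CPM in shScramble and from 6.34 to 7.36 CPM in shIER5L. DCN was at 0 in every shScramble library and COL1A1 at most 0.588 CPM, and both had too few reads to be tested. COL3A1 (3.26 to 5.38 CPM, log2 fold change 0.31), COL1A2 and LUM were tested, and none of them passed the adjusted p of 0.05. The blood marker CD3E had 0 counts throughout and PTPRC at most 0.161 CPM, while the globin HBB stood at 36.3 and 24.6 CPM in shScramble replicates 1 and 3 against 0.97 to 7.13 CPM elsewhere. The part of these transcripts in the results was not tested.

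Several promoters of the members carry the DNA letters through which DREAM and MYBL2 complexes are known to act, the cell cycle genes homology region (CHR, TTTGAA or TTTAAA on either strand), often near CCAAT boxes, which the factor NF-Y binds. The 6 windows below, each of 30 bases on the gene's own strand, show a CHR in capitals in promoters of members from different roles, from RefSeq on GRCh38.p14:
CDC20, chr1:43358904-43358933, plus strand: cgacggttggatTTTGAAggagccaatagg
PLK1, chr16:23678848-23678877, plus strand: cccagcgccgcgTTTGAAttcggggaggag
BUB1B, chr15:40161034-40161063, plus strand: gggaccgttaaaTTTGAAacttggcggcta
SPC25, chr2:168890416-168890445, minus strand: aagtgcactaggTTTGAAatcggaaagttg
KIF23, chr15:69414282-69414311, plus strand: ctgattggcccgTTTGAAatgcgccaggcg
KIF4A, chrX:70290058-70290087, plus strand: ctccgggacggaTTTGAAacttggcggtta

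The CHR of SPC25 began 3 bases upstream of the annotated start, those of BUB1B, PLK1 and KIF4A 23, 29 and 34 bases upstream, and those of KIF23 and CDC20 55 and 65 bases upstream. BUB1B and KIF4A shared the run TTTGAA followed by acttggcgg. A promoter window, from 250 bases before to 50 bases after the annotated start, was matched for 36 of the 42 members, and BIRC5, AURKA, TTK, BUB3, TPX2 and FOXM1 had no entry. A CHR from 100 bases before to 50 bases after the start was present in 27 of the 36 windows (75%), against 6.61% of 11407 promoters of genes tested and 11.3% of all 27305 promoters. At least 1 CCAAT, read as CCAAT or its reverse ATTGG, was present in 27 of 36 windows (75%), against 36.8% of the promoters of genes tested. Both stood together in 58.3% of the members' windows and in 2.79% of those of genes tested. The motifs can overlap: in CDCA8 the last base of a CHR was the first base of a reversed CCAAT. A match describes letters, not a bound site. In shIER5L against shScramble, the 27 members with a CHR near the start had a median log2 fold change of 0.0054, with 14 higher and 13 lower, and the 9 members with a window but no such CHR had a median of -0.043, with 3 higher and 6 lower. In neither set did the members move in 1 direction together.

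The levels of the members spanned a wide range. Levels were compared between genes as RPKM, CPM divided by the merged exon length in kilobases, since longer transcripts collect more reads. TOP2A, which untangles DNA before and during chromosome separation, was highest at 119 RPKM (110 to 125 over the 8 libraries). TPX2, a spindle assembly factor that activates Aurora A, stood at 113, BIRC5 (survivin, of the chromosomal passenger complex) at 108 and AURKA (Aurora A kinase, which builds spindle poles) at 102. The ranges of these 4 genes over the 8 libraries met or overlapped from 1 to the next. ANLN, a scaffold of the cytokinetic ring, followed at 86.6, and CDC20 at 73.7. At the other end, PLK1 (Polo-like kinase 1) had 1.28 RPKM, FOXM1 (the activator of G2/M genes) 1.57, ESPL1 (separase) 1.73 and SGO1 (shugoshin 1, protector of centromeric cohesin) 3.00. The range of FOXM1 overlapped those of PLK1 and of ESPL1, while PLK1 lay below ESPL1 in every library. The median member had 26.8 RPKM, against 3.16 for the median gene tested. Across the 42 members, Spearman's rho between RPKM and GC content, the share of G and C bases, was -0.308. The part of GC content in these levels was not tested.

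**Figure D1:**
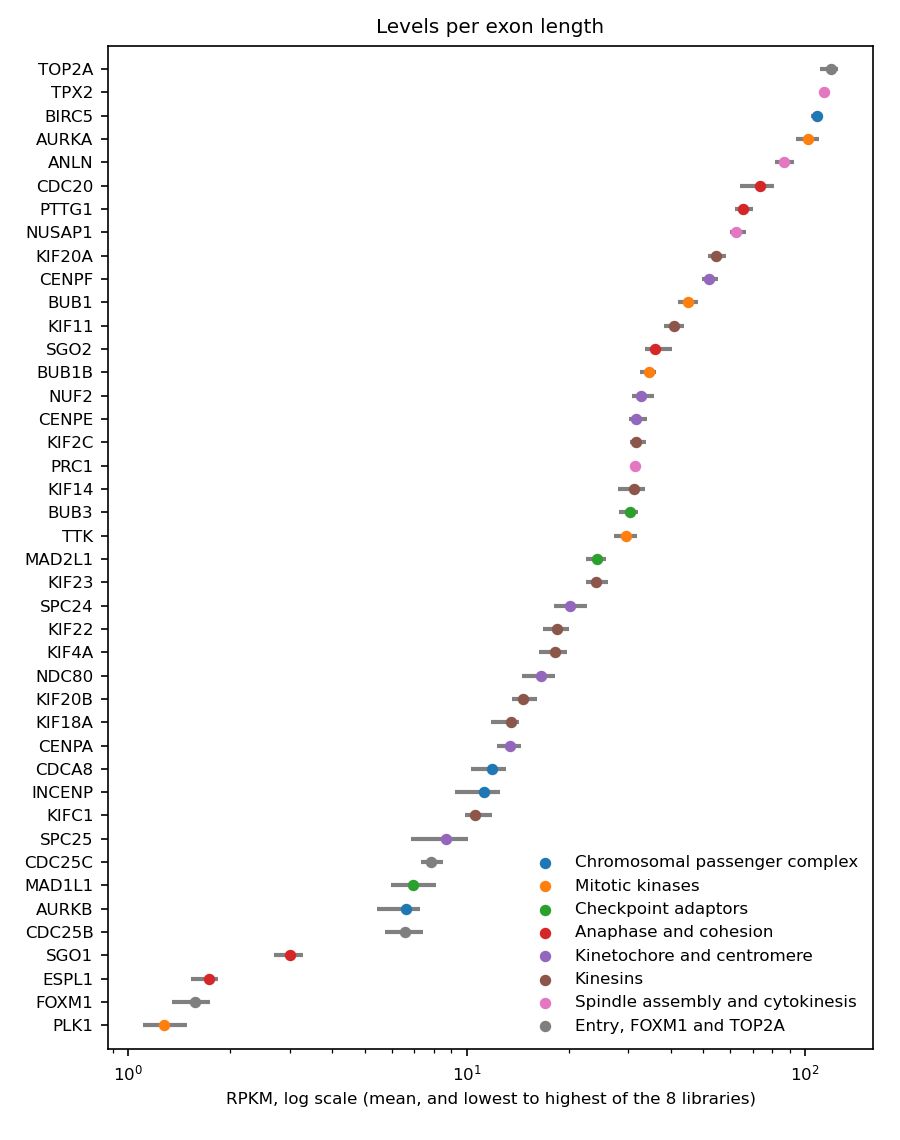
Level of each of the 42 members in RPKM on a log scale. Points are means over the 8 libraries, coloured by role, and grey bars run from the lowest to the highest library. TOP2A, TPX2, BIRC5 and AURKA stand above 100 RPKM and PLK1, FOXM1 and ESPL1 below 2.

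Some members shared exon bases with other genes. Reads were counted without regard to strand, and a read that lies over more than 1 gene was left uncounted, so that a gene misses the reads from a stretch it shares. Exons of 6 members shared at least 10% of their bases with another gene: SGO1 17.7%, FOXM1 15.9%, KIF22 13.01%, PLK1 12.9%, KIFC1 12.7% and BUB1B 10.2%. Genes on the opposite strand overlapped 17 members, and a same-strand gene overlapped BUB1B (BUB1B-PAK6) and CENPA (SLC35F6). PTTG1 and KIF4A have near-identical retrocopies, PTTG2, PTTG3P and KIF4B, and reads of the copies may be split among them. Named pseudogenes of AURKA, AURKB, BUB1, BUB3, MAD2L1, CDC20 and SGO1 were also among the genes counted. Summed over the 8 libraries, CDC20P1 had 354 counts against 27731 for CDC20, and MAD2L1P1 142 against 25608 for MAD2L1. AURKAP1 and AURKAP2 together had 21 against 54891 for AURKA. For all these genes the level is uncertain.

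Across the members, silencing of IER5L left no common shift. In shIER5L, 22 of the 42 were higher and 20 lower, with a median log2 fold change of 0.0039, against a median of 0.0021 over all genes tested. The log2 fold changes ran from -0.26 for SPC25 to 0.16 for AURKA, and their median absolute size was 0.063, against 0.112 over all genes tested. The standard errors of the members ran from 0.037 to 0.135, with a median of 0.053 against 0.109 over all genes tested. The 95% intervals of all 42 members lay between -0.5 and 0.5 on the log2 scale. For 31 of the 42 (73.8%) the interval lay between -0.25 and 0.25, against 31.4% of all genes tested. The members were also measured at higher levels, with a median of 26.8 RPKM against 3.16. All genes tested are thus not a background matched for level, and the part of level in these differences was not tested.

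By the quasi-likelihood test of edgeR with Benjamini-Hochberg adjustment over all genes tested, 2 of the 42 members (4.76%) passed an adjusted p of 0.05, AURKA, which rose, and SPC24, which fell. Over all genes tested 3.93% passed, 2.46% higher and 1.46% lower, so the share of the members was near the background. None of the 42 also reached an absolute log2 fold change of 0.5, against 0.79% of all genes tested. At an unadjusted p under 0.05 there were 5 members (11.9%), AURKA, SPC24, SPC25, CDC20 and CDC25B, against 16.5% of all genes tested. The values of the 2 conditions did not overlap for 3 members (7.14%), AURKA, SPC24 and SPC25, against 10.9% of all genes tested.

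**Figure D2:**
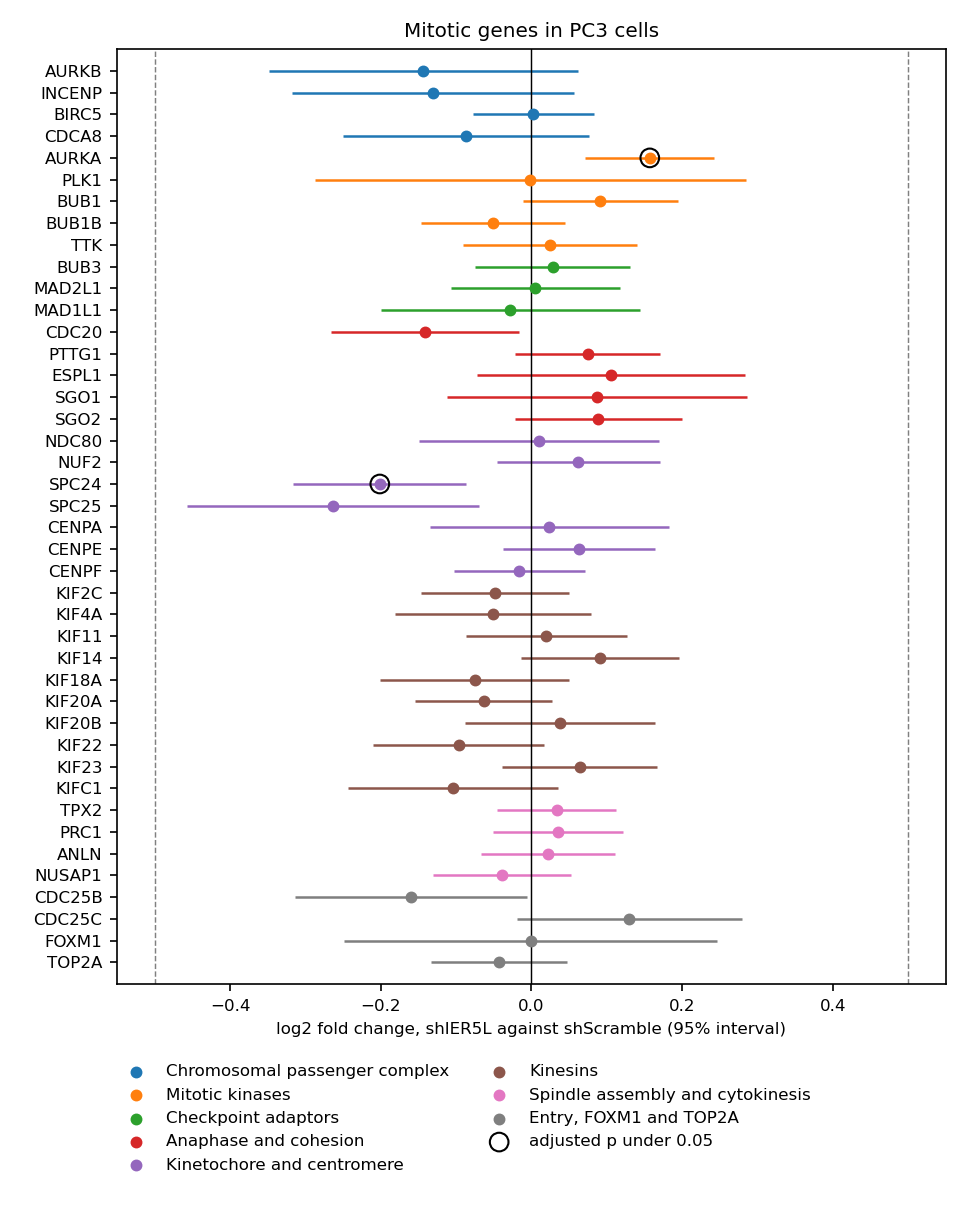
Log2 fold change of each of the 42 members, shIER5L against shScramble, with the 95% interval of the quasi-likelihood fit, by role. Dashed lines mark -0.5 and 0.5, and circles mark the 2 members at an adjusted p under 0.05, AURKA at 0.16 and SPC24 at -0.20.

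Among the 5 mitotic kinases, AURKA rose. Its level was 286, 290, 275 and 274 CPM in the shScramble libraries and 318, 301, 316 and 321 CPM in the shIER5L libraries. Every shIER5L library lay above every shScramble library, although the shIER5L replicate 2 came closest. The log2 fold change was 0.16 (SE 0.040, adjusted p = 0.0379), a level 11.5% higher. With 1 library left out at a time, AURKA passed the threshold in 1 of 8 fits, the one without shIER5L replicate 2, and its adjusted p ran from 0.0224 to 0.139. With all 8 libraries the call was also lost with no filter on low counts (adjusted p = 0.0691) and with upper quartile scaling (0.0720). The call was lost as well with the replicate number as a block in the fit (adjusted p = 0.0655). PLK1 had 5.66, 6.30, 5.30 and 7.08 CPM in shScramble and 7.06, 5.25, 5.57 and 6.44 CPM in shIER5L. The conditions overlapped throughout for PLK1, with a log2 fold change of -0.0013 and an interval from -0.29 to 0.28. BUB1 and BUB1B, kinase and pseudokinase of the checkpoint, had log2 fold changes of 0.09 and -0.05, and TTK (MPS1, which starts checkpoint signalling) had 0.02. None of these 4 passed the test.

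The chromosomal passenger complex corrects wrong attachments and later guides cytokinesis, with AURKB as its kinase, INCENP as the scaffold and BIRC5 and CDCA8 (borealin) as the subunits that bring it to the centromere. None of the 4 passed the test, and the lowest adjusted p was 0.512. AURKB and INCENP had log2 fold changes of -0.14 (interval -0.35 to 0.06) and -0.13 (-0.32 to 0.06), and CDCA8 had -0.09. BIRC5 had 427, 409, 416 and 397 CPM in shScramble and 419, 414, 410 and 409 CPM in shIER5L. The shIER5L values of BIRC5 fell inside the range of the shScramble values, and its log2 fold change of 0.0025 had an interval from -0.08 to 0.08. AURKB was measured at a far lower level than AURKA, 6.59 against 102 RPKM.

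The checkpoint adaptors BUB3, MAD2L1 and MAD1L1, which assemble the inhibitor of CDC20 at unattached kinetochores, had log2 fold changes from -0.03 to 0.03. Their adjusted p was 0.841 at the lowest. All 3 had intervals between -0.25 and 0.25.

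Of the 5 genes of anaphase and cohesion, none passed the test. CDC20 had 147, 164, 165 and 153 CPM in shScramble and 157, 147, 131 and 137 CPM in shIER5L. The shIER5L replicate 1 lay within the range of the shScramble libraries, and the replicate 2 just under it. The log2 fold change of CDC20 was -0.14 (SE 0.059, unadjusted p = 0.0296, adjusted p = 0.234). PTTG1 (securin, the inhibitor of separase), ESPL1, SGO1 and SGO2 had log2 fold changes between 0.07 and 0.11. ESPL1 had 15.2, 15.7, 14.7 and 13.6 CPM in shScramble and 16.3, 16.0, 15.1 and 16.4 CPM in shIER5L. SGO1 had 11.03, 12.3, 10.3 and 10.9 CPM in shScramble and 11.8, 12.6, 11.7 and 11.3 CPM in shIER5L. The conditions overlapped for both genes.

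At the kinetochore, the NDC80 complex, the main microtubule coupler, has 4 subunits, of which 1 passed the test. NDC80 and NUF2 form the arm that holds the microtubule, and SPC24 and SPC25 the arm that anchors it to the kinetochore. SPC24 fell, with 59.2, 64.3, 61.0 and 60.7 CPM in shScramble and 55.3, 52.4, 51.4 and 54.2 CPM in shIER5L. Every shIER5L library lay below every shScramble library. The log2 fold change was -0.20 (SE 0.054, adjusted p = 0.0484), a level that fell by 13.02%. With 1 library left out at a time SPC24 passed in 0 of 8 fits, with adjusted p from 0.0591 to 0.182. With all 8 libraries and the replicate number as a block in the fit, its adjusted p was 0.0826.

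SPC25 had 17.6, 16.3, 17.2 and 18.5 CPM in shScramble and 12.6, 14.9, 16.0 and 14.5 CPM in shIER5L. The conditions did not overlap, but shIER5L replicate 3 lay just under the lowest shScramble library. The log2 fold change was -0.26 (SE 0.091, unadjusted p = 0.0109, adjusted p = 0.139). NDC80 and NUF2 had log2 fold changes of 0.01 (interval -0.15 to 0.17) and 0.06 (-0.05 to 0.17). The ratio of the summed RPKM of SPC24 and SPC25 to that of NDC80 and NUF2 was 0.593, 0.651, 0.662 and 0.655 in shScramble and 0.531, 0.577, 0.520 and 0.506 in shIER5L. This ratio was chosen after the values of its genes were seen and is given as a description without a test. CENPA (the centromeric histone H3 variant), CENPE (a kinetochore motor) and CENPF (a large kinetochore protein) had log2 fold changes of 0.02, 0.06 and -0.02, and none passed the test.

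**Figure D3:**
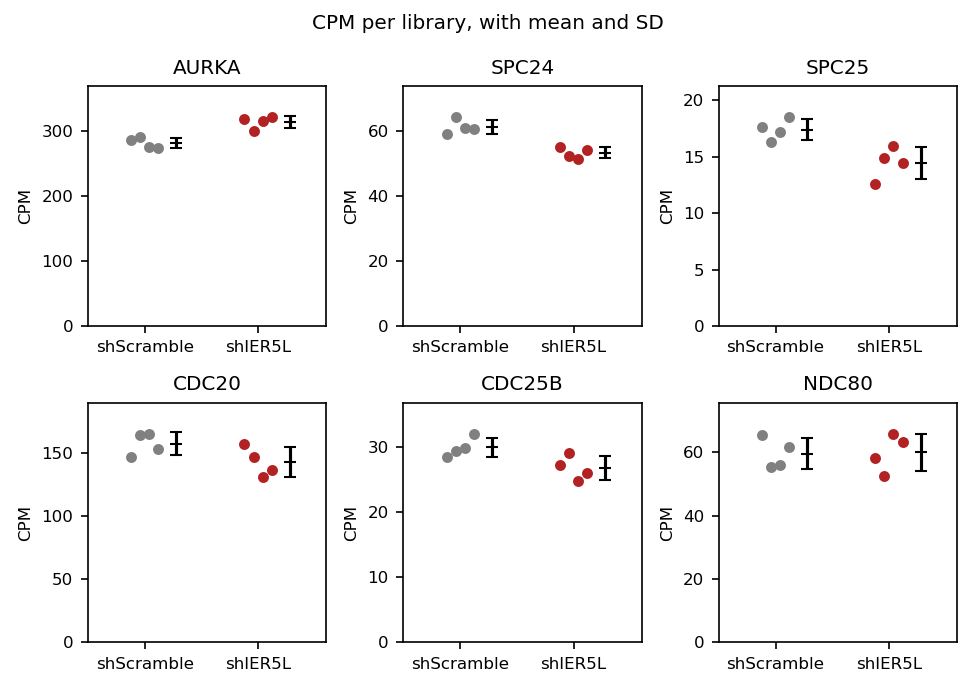
CPM of AURKA, SPC24, SPC25, CDC20, CDC25B and, for comparison, NDC80 in each library, on axes that start at 0. Grey points are the 4 shScramble libraries, red points the 4 shIER5L libraries, and bars the mean and SD. The conditions are separate for AURKA, SPC24 and SPC25, and overlap for the others.

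The 10 kinesins covered most known mitotic motor activities. KIF11 (Eg5) pushes spindle poles apart, KIFC1 pulls inward, KIF2C (MCAK) and KIF18A act on microtubule ends, KIF4A and KIF22 act on chromosome arms, and KIF14, KIF20A, KIF20B and KIF23 act at the midzone and in cytokinesis. No kinesin passed the test, with adjusted p of 0.390 at the lowest. Of the 10, 4 were higher and 6 lower, with log2 fold changes from -0.10 (KIFC1) to 0.09 (KIF14) and a median of -0.05. All 10 intervals lay between -0.25 and 0.25.

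The spindle and cytokinesis proteins TPX2, PRC1 (the midzone bundler), ANLN and NUSAP1 (a microtubule bundler) had log2 fold changes from -0.04 to 0.04, with adjusted p of 0.730 at the lowest. TPX2 had 399, 410, 409 and 397 CPM in shScramble and 420, 399, 415 and 417 CPM in shIER5L. The conditions overlapped for TPX2.

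Among the regulators of entry, CDC25B had 28.4, 29.3, 29.8 and 31.9 CPM in shScramble and 27.1, 29.0, 24.8 and 26.0 CPM in shIER5L. The shIER5L replicate 2 lay inside the shScramble range, and the other 3 below it. The log2 fold change of CDC25B was -0.16 (SE 0.073, unadjusted p = 0.0435, adjusted p = 0.282), while that of CDC25C, its relative, was 0.13 (interval -0.02 to 0.28). FOXM1 had 7.31, 8.41, 6.94 and 8.201 CPM in shScramble and 6.61, 8.15, 7.53 and 8.54 CPM in shIER5L, with a log2 fold change of -0.0012 and an interval from -0.25 to 0.25. TOP2A had 805, 783, 752 and 769 CPM in shScramble and 737, 711, 781 and 788 CPM in shIER5L. The conditions overlapped for both genes, and TOP2A had a log2 fold change of -0.04 (interval -0.13 to 0.05).

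Variation among libraries of 1 condition was of the same order as these differences. The coefficient of variation of a member over 4 libraries had a median of 4.35% in shScramble and 5.18% in shIER5L. The median deviation of the members from their means ran from -0.035 to 0.022 in the shScramble libraries and from -0.052 to 0.050 in the shIER5L libraries on the log2 scale. The shIER5L replicate 2 was the lowest of the 8 libraries for 14 of the 42 members, and the shIER5L replicate 4 was the highest for 11. The spread of the set within shIER5L was therefore wider than the distance between the conditions.

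**Figure D4:**
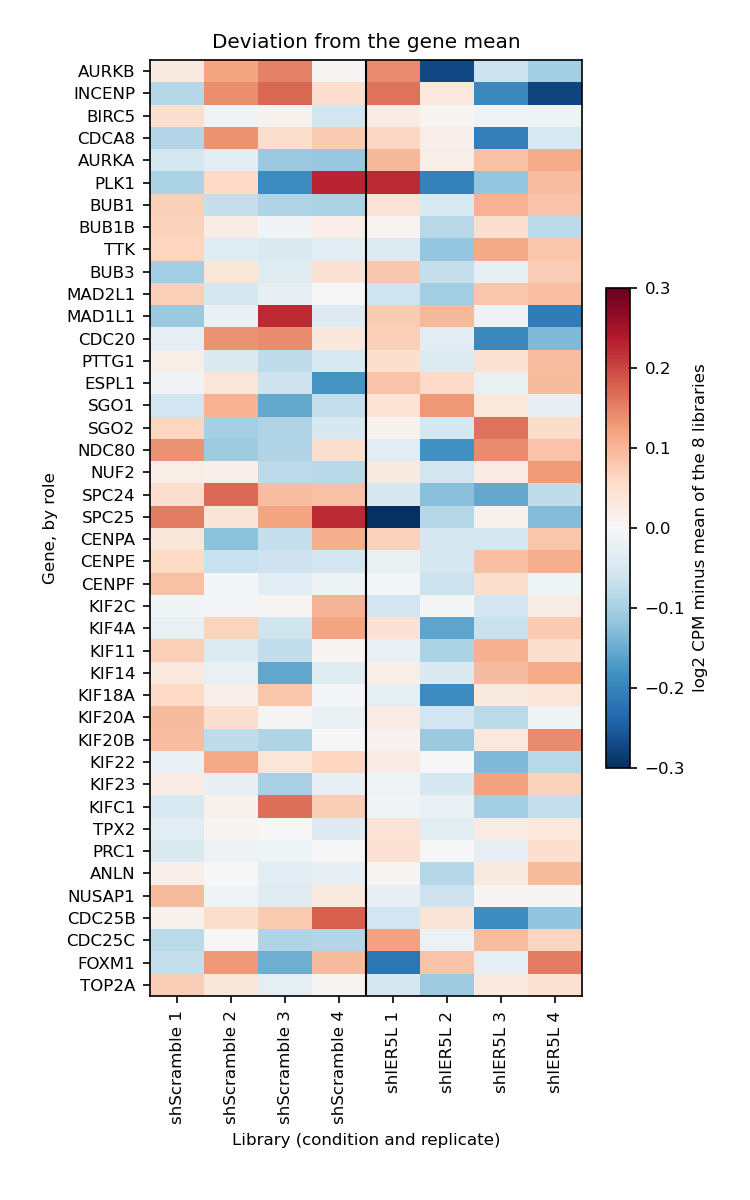
Deviation of each member from its mean over the 8 libraries, on the log2 CPM scale, by role. The colour scale ends at -0.3 and 0.3, and the line divides the 4 shScramble from the 4 shIER5L libraries. Apart from AURKA, SPC24 and SPC25, colours do not divide at the line.

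Log2 fold changes of the members moved with base composition. The GC content of the 42 members ran from 34.3% to 62.6%, and Spearman's rho between GC content and log2 fold change was -0.456 across them. Across genes this is a description, since genes of the same libraries are not independent. In a fit with the trend of each library with GC content removed, an alternative chosen after seeing the data, AURKA and SPC24 passed with adjusted p of 0.0033 and 0.0257, and SPC25 and TOP2A passed as well, with 0.0183 and 0.0235. These 4 members were 9.52% of the 42, in a fit that called 8.1% of all genes tested.

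A list of 122 other mitotic genes, among them condensin, cohesin, further kinetochore subunits, the anaphase-promoting complex and members of DREAM, was read from the same fit. All 122 were tested, 55 were higher and 67 lower, with a median log2 fold change of -0.0077. Of these, 9 (7.38%) passed an adjusted p of 0.05, 8 lower and 1 higher, against 3.93% over all genes tested. The list was chosen with earlier results of these data known, so this share is not an independent observation. The median standard error of the 122 was 0.057, against 0.109 over all genes tested. CENPM, a subunit of the inner kinetochore, fell furthest, with 20.3, 20.9, 21.5 and 18.1 CPM in shScramble and 9.61, 10.4, 7.49 and 8.22 CPM in shIER5L. Its conditions were far apart, with a log2 fold change of -1.18 (SE 0.108, adjusted p = 1.2e-05), and it alone of the 122 passed the fold change threshold too.

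The other genes that fell were MYBL2 (log2 fold change -0.47), the activator that works with FOXM1, ZWILCH (-0.45), which recruits checkpoint proteins, HMMR (-0.44), a spindle protein, RBL1 (-0.37), the p107 pocket protein of DREAM, TUBG1 (-0.29), the gamma-tubulin that nucleates microtubules, NCAPD2 (-0.26), a condensin subunit, and ANAPC1 (-0.22), of the anaphase-promoting complex. MYBL2 had 64.2, 74.3, 76.5 and 70.6 CPM in shScramble and 59.8, 52.3, 49.2 and 44.5 CPM in shIER5L. HMMR had 190, 168, 167 and 176 CPM in shScramble and 125, 127, 134 and 131 CPM in shIER5L. The conditions did not overlap for either gene. SKA2, which stabilizes kinetochore attachments, rose by 0.23 on the log2 scale, with overlapping conditions (155 to 175 CPM in shScramble and 172 to 207 CPM in shIER5L). CENPM, HMMR, ZWILCH, RBL1, MYBL2 and NCAPD2 passed in all 8 fits with 1 library left out, ANAPC1 in 5, TUBG1 in 4 and SKA2 in 2. SKA2 was also lost with upper quartile scaling (adjusted p = 0.0574). ANAPC1 has 6 named pseudogenes in the table, so its count is uncertain. Opposite-strand genes overlapped exons of ZWILCH (10.9% of its exon bases shared), NCAPD2 (7.49%), TUBG1 (5.77%) and HMMR (2.87%), and also of RBL1. The levels of these genes are uncertain too, since reads over more than 1 gene were left uncounted. CENPM and MYBL2 had no such overlap.

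The letters of the hairpin were looked for in the 3′ untranslated regions of these genes, since a short hairpin can lower transcripts that match part of it. The sh2 sequence is shown with the stretch in capitals that holds the heptamers CATCTCA and ACATCTC, which a scan of these same libraries had picked out before, so that their pattern is not independent here:
sh2 IER5L hairpin: gacgcgtccaACATCTCAaac

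Either heptamer was present in the longest annotated 3′ untranslated region (GENCODE v44) of 5 of the 42 members (11.9%), against 23.8% of 12695 genes tested with such a region. The 5 were BUB3, MAD2L1, KIF11, CDC25B and TOP2A. Their log2 fold changes ran from -0.16 to 0.03 with a median of 0.0054, and none passed the test. Of the 122 other mitotic genes, 28 (23.0%) held a heptamer. Among these 28, 6 passed as lower and 0 as higher, and among the 94 without a heptamer 2 passed as lower and 1 as higher. Over all genes tested 1.46% passed as lower, and over the 3017 genes tested that hold a heptamer 4.74% did. Over the 9678 genes tested with such a region but no heptamer, 0.847% passed as lower, against 2.13% of the 94. The 6 were CENPM, HMMR, ZWILCH, RBL1, MYBL2 and NCAPD2. Since the heptamers were picked from these same libraries, the calls of genes that hold them are not independent of that choice. The sites are shown for 3 members that did not pass the test and 4 other mitotic genes that fell, with the heptamer in capitals, on the gene's strand in GRCh38:
KIF11, chr10:92654451-92654479, plus strand: ttagaaaggacCATCTCAtgttttttttc
CDC25B, chr20:3805565-3805593, plus strand: gactttacgccCATCTCAggacacttccg
TOP2A, chr17:40389317-40389345, minus strand: taaatagtgacCATCTCAtgggcattgtt
CENPM, chr22:41938781-41938809, minus strand: gctggcgtgttACATCTCcatttaaggtt
HMMR, chr5:163491403-163491431, plus strand: agcttagaatgCATCTCAtcaacttaaaa
MYBL2, chr20:43716371-43716399, plus strand: aggcctggcctCATCTCAgaccctgctta
NCAPD2, chr12:6531788-6531816, plus strand: tagcgaacctcCATCTCAaattaaaaaaa

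KIF11, CDC25B and TOP2A held 1 site each, as did CENPM, HMMR, MYBL2 and NCAPD2, while RBL1 held 3 and ZWILCH 2. MAD2L1 held 3 and BUB3 2, in untranslated regions of 4495 and 6632 bases. A heptamer was thus present both in genes that fell and in members that did not pass the test. AURKA, SPC24 and SPC25 held neither heptamer. Whether the hairpin acts at any of these sites was not tested.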

How the data were processed

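RNA of 8 PC3 samples was sequenced as paired reads. The authors deposited raw counts of reads per Ensembl gene. Per the labels and the paper's methods, reads were aligned to hg38 with STAR 2.7.5c, PCR duplicates removed with SAMtools 1.15 and exons counted with featureCounts 2.0.3. The command in the file header has no strand option and counts both reads of a pair separately. The labels name a poly(A) mRNA kit and the paper a ribosomal depletion kit. Merged exon lengths in bases stand beside the deposited counts.

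From these counts, genes were kept with filterByExpr, scaled by TMM and tested with the quasi-likelihood test of edgeR 4.0.16 (R 4.3.3), on condition alone, and p-values were adjusted by Benjamini-Hochberg over 16959 genes. Conditions and replicate numbers came from the sample titles. The deposited column of shScramble replicate 3 was named S_3Cont2, while the names of the other controls ended in Cont3. The sources used here do not explain this difference. The replicates are described as biological, and how they map to the plates seeded was not stated. The p-values measure the spread between these replicates of 1 line. Replicates of 1 condition had correlations of log2 CPM from 0.993 to 0.995 and no pair agreed within sampling noise (chi-square per degree of freedom 2.81 or more). RPKM are TMM-scaled CPM per kilobase. The fit was tested on counts simulated with changes larger than that of any member, so that test does not cover changes of their size. Alternatives were RLE and upper quartile scaling, no filter, at least 1 CPM in 4 libraries, DESeq2 1.42.0, limma 3.58.1 voom, a replicate block, counts halved, and each library left out. Removal of the GC trend (lowess, span 0.3) was added after seeing the data. The members and the lists were chosen with earlier results of these data known. Named with values in every library were members at an unadjusted p under 0.05 and the 4 highest and 4 lowest by RPKM. Of the other mitotic genes, those at an adjusted p under 0.05 were named, and CENPM, MYBL2 and HMMR were chosen for values per library after these were seen. Proteome data were not analysed here.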

Additional observations from a re-analysis of the deposited data

Results flagged for a closer look

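Among 102 groups of 4 libraries examined (each member and each named mitotic gene in each condition), 5 held a library whose gap to the others passed Dixon's criterion, and chance flags about 1 group in 20. The shScramble replicate 1 was high for BUB1, at 285 CPM against 254 to 258 in the other 3 libraries, for TTK, at 140.9 CPM against 130.9 to 132.0, and for CENPE, at 312 CPM against 285 to 287. The shScramble replicate 4 was high for KIF2C, at 123 CPM against 114 to 115. The shScramble replicate 2 was high for CDC25C, at 23.8 CPM against 22.3 to 22.5. None of these 5 genes passed the test between conditions.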

How the results depend on the processing

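The count of members past the fold change threshold was 0 under every alternative run, and the median log2 fold change of the members moved between -0.028 and 0.041. The count of members at an adjusted p under 0.05, 2 as reported, was 4 with the GC trend removed (where 8.1% of all genes tested were called). It was 1 with no filter on low counts (2.53% of all genes tested in that fit) and 1 with upper quartile scaling (3.78%). AURKA was lost in both. The count was 0 with the replicate block (3.86% of all genes tested). With a library left out it was 0 to 1, and only the fit without shIER5L replicate 2 kept AURKA. Over all genes tested, 1.76% to 4.37% were called with a library left out, against 3.93%. The other mitotic genes at an adjusted p under 0.05, 9 as reported, were 15 with the GC trend removed, against 8.1% of all genes tested. They were 8 with upper quartile scaling (SKA2 lost), against 3.78%, and 6 to 10 with a library left out, against 1.76% to 4.37%. Same-numbered samples correlated from -0.087 to 0.204 in their deviations, and not every sample correlated best with its own number. These correlations do not settle whether the numbers pair the samples. The replicate block left 9 other mitotic genes and gave AURKA and SPC24 adjusted p of 0.0655 and 0.0826.

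Members near 0, none of them past the threshold, changed sign. With the GC trend removed, PLK1 had 0.041, FOXM1 0.041, MAD1L1 0.024, TTK -0.020, BUB3 -0.014, MAD2L1 -0.055, NDC80 -0.042, CENPE -0.011, KIF11 -0.031, KIF20B -0.040 and ANLN -0.029. BIRC5 had -0.0056 under DESeq2 and RLE scaling, -0.013 with at least 1 CPM in 4 libraries, -0.012 with counts halved, -0.011 with no filter and -0.015 with upper quartile scaling. In the same order MAD2L1 had -0.0025, -0.011, -0.0087, -0.0078 and -0.011. NDC80 had -0.0054 with at least 1 CPM, -0.0030 with counts halved, -0.0024 with no filter and -0.0064 with upper quartile scaling. With a library left out, the ranges were -0.015 to 0.017 for BIRC5, -0.081 to 0.079 for PLK1, -0.017 to 0.066 for TTK, -0.0030 to 0.056 for BUB3, -0.029 to 0.040 for MAD2L1, -0.072 to 0.048 for MAD1L1, -0.044 to 0.069 for NDC80, -0.012 to 0.066 for CENPA, -0.043 to 0.0085 for CENPF, -0.020 to 0.054 for KIF11, -0.0043 to 0.080 for KIF20B, -0.0071 to 0.054 for ANLN and -0.053 to 0.065 for FOXM1. The scalings and filters, DESeq2 and the halved counts also shifted the median log2 fold change of all genes tested, which was 0.0021 as reported. It was -0.0060 (RLE), -0.0059 (DESeq2), -0.010 (at least 1 CPM), -0.010 (counts halved), -0.016 (no filter) and -0.015 (upper quartile). The cause of the other changes was not tested. PLK1 and FOXM1 had the fewest counts of the members, 120 to 160 and 150 to 199 per library, and the largest standard errors, 0.135 and 0.117.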
